A study of Rattus norvegicus with 64 samples.

Results

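The vascular endothelial genes described here are Pecam1, Cdh5, Vwf, Tie1, Emcn, Esam, Nos3, Cldn5, Sox18 and Egfl7. They were chosen by name, as genes that mark the inner lining of blood vessels, and were looked up among 30367 gene probes that named 15715 genes. Of these 10 genes, 9 had a probe, with 2 probes for Vwf and 1 for each of the others. No probe was matched to Egfl7, which is not analysed here. Gene expression was measured in total RNA of reconstructed bladder wall, separated from the native bladder, on 64 1-color Agilent rat arrays. All rats were male Wistar rats after hemicystectomy, and the bladder was augmented with bladder acellular matrix (BAM), the wall matrix left once the cells of a syngeneic donor bladder are removed. In one arm the graft was BAM only. In the other arm BAM was seeded with adipose-derived stromal cells (ASCs; the labels call them ADSCs and stem cells) grown to the third passage from retroperitoneal fat. Each graft was studied at 7, 30, 90 and 180 days of follow-up with 8 arrays, 1 rat per array. The labels do not give the age of the operated rats, and there was no array of native or unoperated bladder.

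Endothelial cells line vessels as a single sheet held together by junction proteins. They recruit leukocytes, store clotting factor, make nitric oxide and sprout into new tissue, and a cell-free graft can only be perfused after vessels have grown into it from the host. As the wall is a mixture of cells, fewer endothelial cells and less RNA of these genes per cell cannot be told apart in these values.

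Levels are given as the normalized log2 signal, which is log2 of the processed spot intensity minus the 75th percentile of the array. Values of different probes are not comparable with each other, so each gene is compared only with itself. A differentially expressed gene (DEG) had a limma adjusted p under 0.01 together with a change of more than 1.5-fold, where the adjustment covered all 30367 probes. Each group filled 1 slide, which leaves no value within a slide, and slide effects and group effects cannot be told apart. Moreover, the scan date of the 7-day and 30-day arrays was not that of the 90-day and 180-day arrays. The share of gene spots well above background was between 73.3% and 95.6% in the 32 arrays of the earlier days and between 35.5% and 64.6% in the 32 arrays of the later days. No probe of the 9 genes was saturated, and in most groups each was well above background on 8 of 8 arrays. The exceptions were Cdh5 in BAM only at 180 days, with 6 arrays, and Tie1, Nos3 and Sox18 in BAM only at 90 days, with 7 arrays each.

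At 7 days, Vwf was the 1 DEG among the 9 genes, and it was lower after reconstruction using BAM seeded with ASCs than after reconstruction using BAM only. Of all probes 7.71% were DEGs at 7 days, with 2.11% higher and 5.6% lower with ASCs. The means of 8 of the 9 genes were lower with ASCs, with Cldn5 as the exception, and the median of the 9 differences was -0.56 on the log2 scale, against -0.16 over all probes. A negative difference here and below means a lower signal with ASCs.

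Vwf encodes von Willebrand factor, the clotting protein that endothelial cells store and release. At 7 days its level ran from 0.75 to 2.14 with a median of 1.27 in BAM only, and from -0.10 to 0.79 with a median of 0.26 with ASCs. The groups overlapped by a narrow margin, since 7 of 8 BAM only arrays lay above every array with ASCs. The difference was -0.997 ± 0.17 (SE), a 2.00-fold decrease, with a limma adjusted p of 1.24e-05. The second Vwf probe gave -0.98 ± 0.23 with an adjusted p of 0.00168, and both probes varied together across the 64 arrays with a Pearson r of 0.88. Leaving out any 1 of the 16 arrays kept Vwf past both thresholds, with differences between -1.08 and -0.89. Other genes joined it when 1 array was left out, up to 4 DEGs without BAM only replicate 4 and 3 without replicate 3 with ASCs.

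Among the other junction and surface proteins, Pecam1, Cdh5 and Esam were lower by means that narrowly missed the adjusted p. Pecam1, the adhesion protein CD31, lay between 2.52 and 3.38 with a median of 2.83 in BAM only and between 2.03 and 2.56 with a median of 2.27 with ASCs. For this gene 6 of 8 BAM only arrays were above the whole range of the arrays with ASCs. The Pecam1 difference was -0.56 ± 0.17 with an adjusted p of 0.0119 and a 1.48-fold change, so it was short of both thresholds.

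Cdh5 encodes VE-cadherin, the cadherin of the endothelial adherens junction. Its level at 7 days was between -1.79 and -0.07 with a median of -1.19 in BAM only and between -2.36 and -1.47 with a median of -1.87 with ASCs. The ranges overlapped, and the difference of -0.77 ± 0.23 had an adjusted p of 0.0144. Without BAM only replicate 7, the highest array at -0.07, it was -0.63 with an adjusted p of 0.0664. Without BAM only replicate 2, the lowest of that group, it was -0.87 with an adjusted p of 0.00650. Esam, an adhesion molecule of endothelial tight junctions, ran from 0.22 to 0.94 with a median of 0.53 in BAM only and from -0.49 to 0.37 with a median of -0.07 with ASCs. Its difference of -0.60 ± 0.18 had an adjusted p of 0.0111. Both missed the adjusted p but not the fold change.

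Nos3, the nitric oxide synthase of endothelial cells, had levels between -1.63 and -0.84 with a median of -1.11 in BAM only and between -2.34 and -1.27 with a median of -1.98 with ASCs. For this gene 6 of 8 arrays with ASCs lay below every BAM only array. The Nos3 difference was -0.74 ± 0.22 with an adjusted p of 0.0120. Sox18, a transcription factor of endothelial differentiation, ran from 0.39 to 1.39 in BAM only and from 0.10 to 0.94 with ASCs, and its difference was -0.47 ± 0.19 with an adjusted p of 0.0847.

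The other 3 genes differed by less. Tie1, a receptor tyrosine kinase that modulates angiopoietin signaling, had a difference of -0.18 ± 0.22. Emcn, the sialomucin endomucin of capillaries and veins, had -0.11 ± 0.15. Cldn5, the tight junction claudin of endothelium, had 0.09 ± 0.17, with ranges that covered each other almost entirely.

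Endothelial genes outside these 9 were examined as a list of 30 genes, 26 of them on the array. At 7 days 26 of 26 had a lower mean with ASCs, with a median difference of -0.45, and 6 were DEGs. Among these were Kdr and Flt1, receptors of vascular endothelial growth factor, and Cd34, Rasip1 and Myct1. Myct1 had the largest of these differences, -0.96 with an adjusted p of 3.15e-04, and Kdr had -0.68 with an adjusted p of 0.00312. The count of 6 fell to 2 with quantile normalization, to 2 with normexp background correction and to 1 with the percentile taken over detected probes.

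Markers of other cell types differed at 7 days too. Of 7 urothelial genes 5 were DEGs, higher with ASCs (Upk1a, Upk1b, Upk2, Upk3a and Krt7), with a median difference of 2.06 over the list. The mean level of these 7 genes was between 0.99 and 3.03 with ASCs and between -2.62 and 2.38 in BAM only. None of the 8 smooth muscle genes was a DEG, with 3 at an unadjusted p below 0.05, and their median difference was 0.32. Of 9 genes of mural cells, the pericytes and muscle cells around vessels, 1 was a DEG, lower with ASCs (Pdgfrb, -0.69), and the median was -0.33. Of 7 leukocyte genes none was a DEG, with 0 at an unadjusted p below 0.05, and the median was -0.30. Platelets also carry Vwf, and 4 platelet and megakaryocyte genes had a median of -0.44 and no DEG. The part of these cell types in the endothelial differences was not tested.

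**Figure D1:**
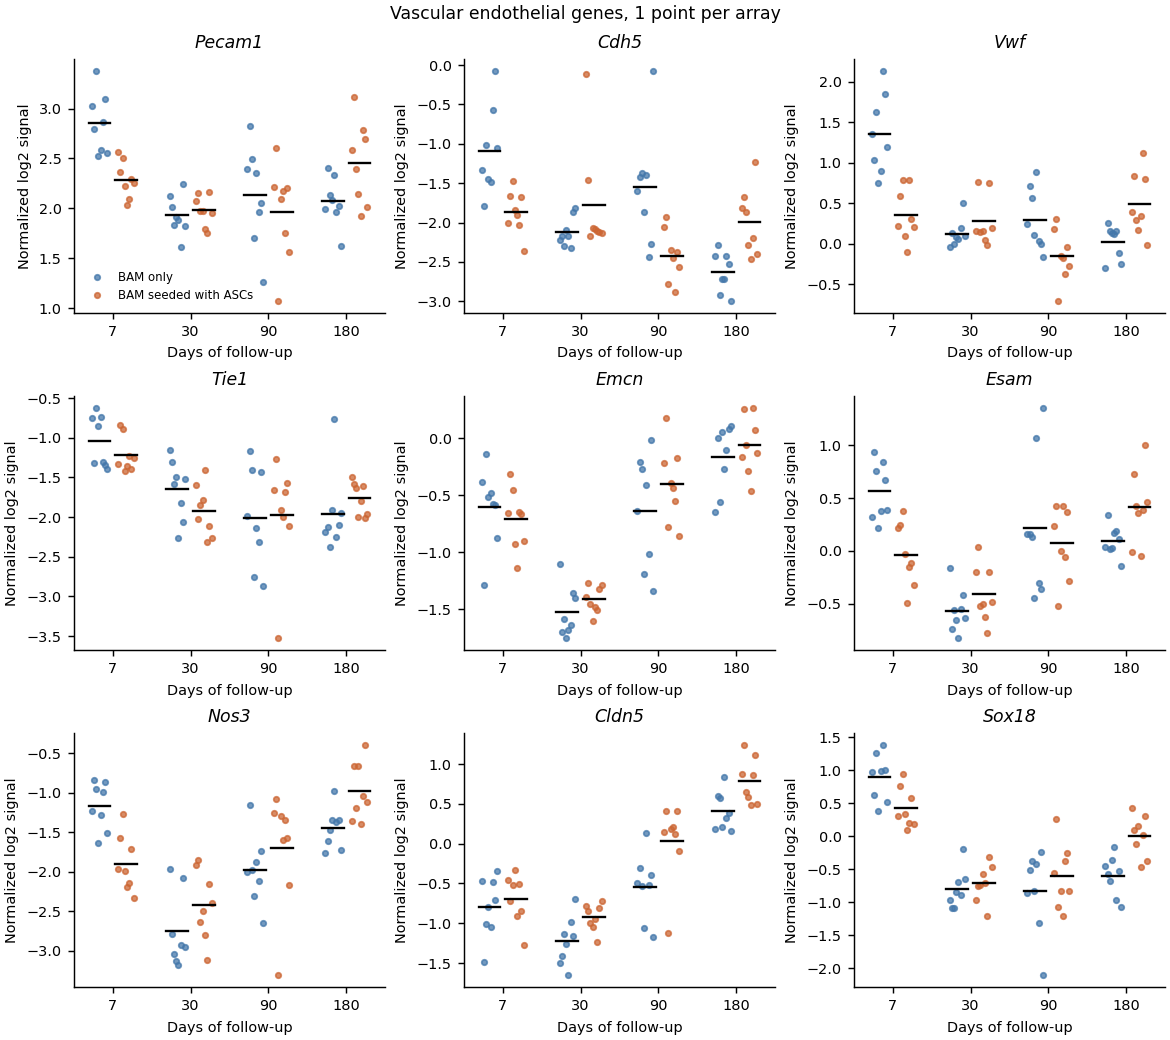
Normalized log2 signal of the 9 genes (y axis, a scale of its own for each gene) by days of follow-up (x axis), with 1 point for each of 64 arrays and a black line at the mean of each group of 8. BAM only is in blue and BAM seeded with ASCs in orange. For Vwf at 7 days, 7 of 8 BAM only arrays lie above all arrays with ASCs, and for 6 genes the BAM only arrays of 30 days lie below all of 7 days.

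At 30 days no gene of the 9 was a DEG, against 1.67% of all probes (1.2% higher and 0.474% lower with ASCs), and 0 had an unadjusted p below 0.05. The same comparison tested without moderation also called none. The differences ran from -0.27 ± 0.22 for Tie1 to 0.34 ± 0.23 for Cdh5, and 8 of 9 means were higher with ASCs. Their median was 0.15, near the 0.11 of all probes. Cdh5 with ASCs ran from -2.17 to -0.11 with a median of -2.09, and replicate 1 at -0.11 lay far above the next array at -1.46. Without that array the Cdh5 difference was 0.10. On that replicate 95.6% of gene spots were well above background, against 74.1% to 86.2% on the others of its group.

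Between 7 and 30 days the difference itself changed for 1 gene, Vwf, which went from -0.997 to 0.15. The change of 1.15 ± 0.24 had a limma adjusted p of 0.00343, and 0.985% of all probes passed this test (0.886% up and 0.0988% down). The second Vwf probe gave 1.22 ± 0.33 with an adjusted p of 0.0205, short of the threshold. Nos3 followed with 1.07 ± 0.31 (adjusted p = 0.0294) and Cdh5 with 1.11 ± 0.33 (adjusted p = 0.0345), both short of the threshold. For Cldn5, Emcn and Tie1 the changes lay between -0.10 and 0.22.

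At 90 days Cdh5 was the 1 DEG, lower with ASCs, against 12.4% of all probes that were DEGs (3.87% higher and 8.57% lower with ASCs). Cdh5 ran from -2.43 to -0.08 with a median of -1.51 in BAM only and from -2.88 to -1.94 with a median of -2.41 with ASCs. For this gene 6 of 8 BAM only arrays were above every array with ASCs, and replicate 8 of BAM only stood highest at -0.08 with the next at -1.38. The difference was -0.87 ± 0.23 with an adjusted p of 0.00395, or 1.83-fold. It fell to -0.66 with an adjusted p of 0.0243 without that array, and it was also no longer a DEG without replicate 6 with ASCs, with normexp background correction (-0.51, adjusted p = 0.0767) or with each day fitted separately (adjusted p = 0.0228). On replicate 8 of BAM only 35.5% of gene spots were well above background, against 53.0% to 58.5% on the other 7 arrays of that group, and its 75th percentile was 9.91 on the log2 scale against 10.9 to 11.6. The median local background of the arrays was 345 ± 14.2 (SD, n = 8) in BAM only at 90 days and 108 ± 7.03 (SD, n = 8) with ASCs, and its part in the Cdh5 difference was not tested.

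Cldn5 moved the other way at 90 days. It ran from -1.18 to 0.13 with a median of -0.51 in BAM only and from -1.12 to 0.41 with a median of 0.17 with ASCs. For this gene 5 of 8 arrays with ASCs lay above every BAM only array, while replicate 3 with ASCs, at -1.12, lay near the bottom of both groups. The difference of 0.58 ± 0.17 had an adjusted p of 0.00733 but a fold change of 1.49, just under the threshold. Without replicate 3 it was 0.74 with an adjusted p of 1.97e-04, past both thresholds.

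The remaining genes at 90 days had differences from -0.45 ± 0.17 for Vwf (adjusted p = 0.0341) to 0.27 ± 0.22 for Nos3. The median of the 9 was 0.04 against -0.27 over all probes. That gap of 0.31 became -0.071 with normexp background correction and -0.022 without dim probes. Its sign thus depended on the background correction and on which probes were kept. The 3 smooth muscle, 3 fibroblast and 3 housekeeping genes that passed the test at 90 days were saturated on 7 or 8 of the 8 BAM only arrays and on 2 to 8 of the 8 arrays with ASCs, so no difference is given for them. From 30 to 90 days the graft difference fell for Cdh5, by 1.21 on the log2 scale (SE 0.33, adjusted p = 0.00649), against 9.96% of all probes that passed (3.32% up and 6.64% down). This call was lost without any 1 of 7 arrays, with a value of -0.97 without replicate 1 with ASCs at 30 days and -0.998 without BAM only replicate 8 at 90 days, and with normexp it was -0.74 (adjusted p = 0.0910).

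At 180 days none of the 9 genes was a DEG, against 2.42% of all probes, although 9 of 9 means were higher with ASCs and 6 had an unadjusted p below 0.05. The same comparison tested without moderation also called none. The median difference was 0.39 against 0.06 over all probes, and 2.38% of all probes were higher DEGs and 0.0428% lower ones. Sox18 came nearest. It ran from -1.08 to -0.17 with a median of -0.56 in BAM only and from -0.47 to 0.43 with a median of 0.05 with ASCs. For this gene 6 of 8 arrays with ASCs were above every BAM only array, and the difference of 0.61 ± 0.19 had an adjusted p of 0.0489. With normexp background correction it passed both thresholds (0.66, adjusted p = 0.00758).

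For Cdh5 the 180-day levels ran from -3.00 to -2.29 in BAM only and from -2.46 to -1.23 with ASCs, with medians of -2.62 and -2.03. The difference of 0.63 ± 0.23 had an adjusted p of 0.124. Vwf differed by 0.47 ± 0.17 (adjusted p = 0.102), Nos3 by 0.47 ± 0.22 (adjusted p = 0.289), Pecam1 by 0.39 ± 0.17 (adjusted p = 0.227) and Cldn5 by 0.38 ± 0.17 (adjusted p = 0.252). All 26 of 26 other endothelial genes also had a higher mean with ASCs at 180 days, with a median of 0.34, and none was a DEG, with 13 at an unadjusted p below 0.05. Of 3 adipocyte genes none was a DEG at 180 days, but Adipoq, an adipocyte hormone singled out after its values were seen, ran from -6.33 to 0.28 with a median of -4.08 in BAM only and from -1.34 to 1.70 with a median of -0.088 with ASCs. Its difference of 3.66 ± 1.03, or 12.6-fold, had an adjusted p of 0.0193, and its probe was well above background on 3 of the 8 BAM only arrays. The part of adipocyte markers in the endothelial values was not tested. The 9 genes share their RNA, slide and scaling, so the common sign of their means is 1 observation about these arrays and not 9.

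From 90 to 180 days the graft difference rose for Cdh5 by 1.503 ± 0.33 (adjusted p = 5.44e-04) and for Vwf by 0.92 ± 0.24 (adjusted p = 0.00319), against 9.75% of all probes that passed (5.92% up and 3.83% down). The median change of the 9 genes, 0.38, was that of all probes, 0.38. Vwf lost its call, at 0.79 and an adjusted p of 0.0330, when its 2 probes were averaged. Its second probe alone gave 0.67 ± 0.33 with an adjusted p of 0.125, short of the threshold.

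**Figure D2:**
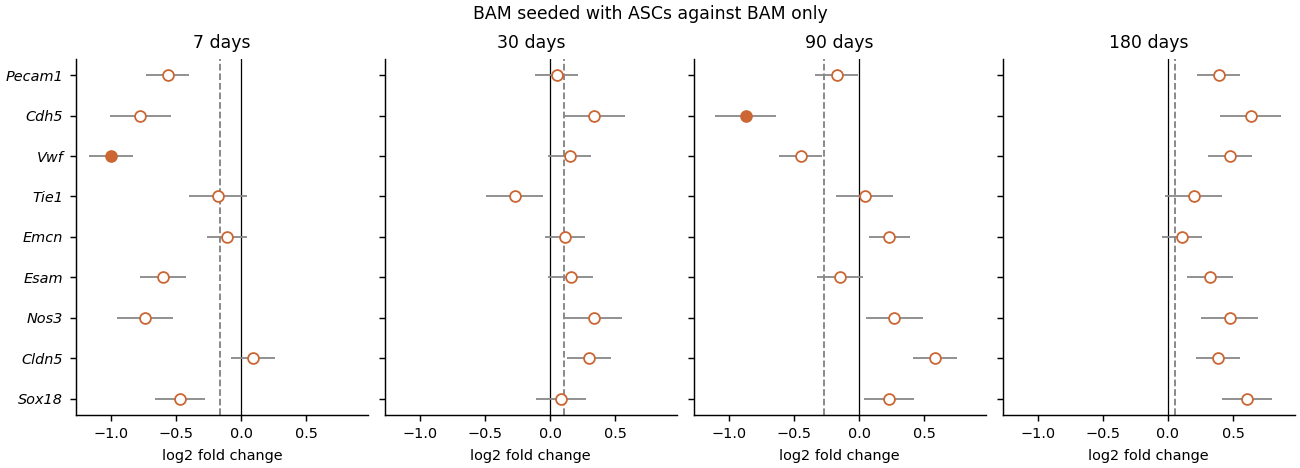
Log2 fold change of BAM seeded with ASCs against BAM only (x axis) for the 9 genes at each day of follow-up, with bars of 1 SE from limma. Filled points are DEGs (Vwf at 7 days and Cdh5 at 90 days), and the dashed line is the median of all probes. The points lie left of 0 for 8 genes at 7 days and right of 0 for all 9 at 180 days.

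Within BAM only, 7 of the 9 genes were DEGs that fell from 7 to 30 days, whereas 8.63% of all probes changed (4.19% fell and 4.44% rose). These were Pecam1, Cdh5, Vwf, Emcn, Esam, Nos3 and Sox18. The median change of the 9 was -1.03 against -0.06 over all probes. For 6 of the 7, all but Emcn, every array of 30 days lay below every array of 7 days, as did 3.52% of all probes. By the brightest probe of each gene Sox18 fell most, by 1.70 on the log2 scale (SE 0.19, adjusted p = 8.49e-10), from levels between 0.39 and 1.39 to levels between -1.09 and -0.19. Nos3 followed, from between -1.63 and -0.84 to between -3.17 and -1.96, a change of -1.59 ± 0.22 (adjusted p = 9.44e-08). Vwf changed by -1.23 ± 0.17, its second probe by -1.75 ± 0.23 (adjusted p = 4.93e-08), and Esam by -1.13 ± 0.18. Tie1 (-0.61 ± 0.22, adjusted p = 0.0409) and Cldn5 (-0.43 ± 0.17, adjusted p = 0.0614) were not DEGs.

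With ASCs, 2 of the 9 genes were DEGs that fell from 7 to 30 days, Sox18 and Emcn, against 8.04% of all probes that changed (1.39% fell and 6.65% rose). Sox18 changed from between 0.10 and 0.94 to between -1.21 and -0.31, which is -1.15 ± 0.19 (adjusted p = 9.55e-06). Emcn, at -1.14 to -0.32 at 7 days and -1.60 to -1.27 at 30 days, changed by -0.70 ± 0.15 (adjusted p = 6.21e-04). For both genes every array of 30 days lay below every array of 7 days, as did 2.31% of all probes. Tie1 fell short of the threshold at -0.70 ± 0.22 (adjusted p = 0.0148). Vwf with ASCs had 0.36 ± 0.33 (SD, n = 8) at 7 days and 0.27 ± 0.30 (SD, n = 8) at 30 days, a change of -0.08 ± 0.17. That 7 genes were DEGs in one graft and 2 in the other does not show a difference between grafts, and the test of that difference passed for Vwf alone, by 1 of its 2 probes, as given above. The fall was shared by other endothelial genes, 15 of 26 of which were lower DEGs in BAM only (median -0.84) and 5 of 26 with ASCs (median -0.29), where 1 was a higher DEG. Mural cell genes fell as well, 5 of 9 as DEGs in BAM only and 1 of 9 with ASCs, and 4 of 7 urothelial genes were higher DEGs in BAM only. The part of the urothelial and mural markers in this fall was not tested.

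**Figure D3:**
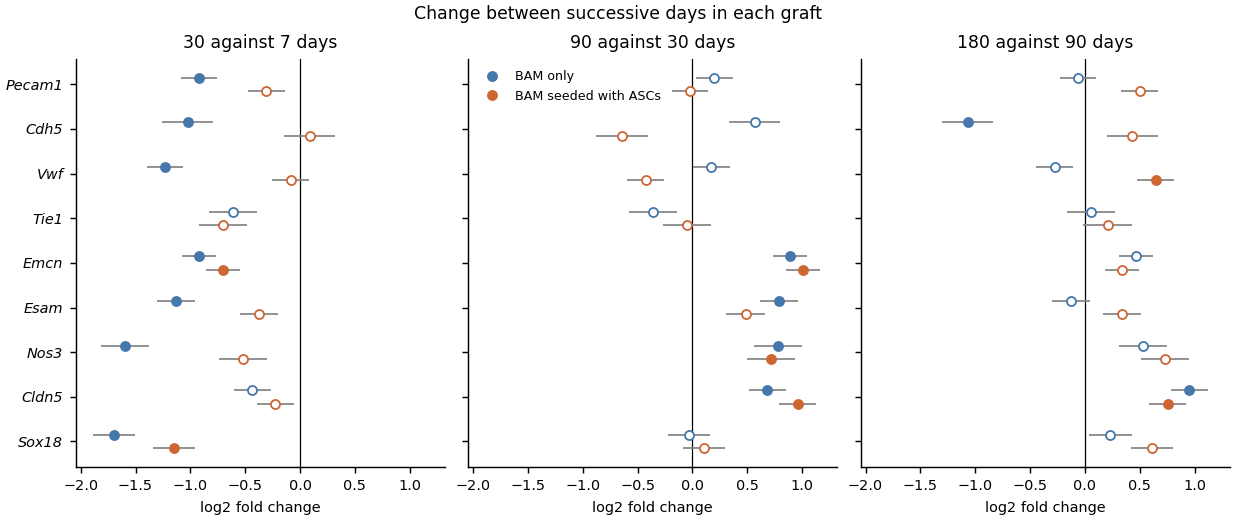
Log2 fold change between successive days of follow-up (x axis) for the 9 genes, in BAM only (blue) and BAM seeded with ASCs (orange), with bars of 1 SE. Filled points are DEGs. Of the DEGs, 7 fell in BAM only and 2 with ASCs from 7 to 30 days, and Emcn, Nos3 and Cldn5 rose in both grafts from 30 to 90 days.

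From 30 to 90 days 3 genes were DEGs that rose in both grafts, Emcn, Nos3 and Cldn5, and Esam was such a DEG in BAM only. In BAM only 44.7% of all probes changed (35.2% rose and 9.49% fell), and with ASCs 28% changed (17.8% rose and 10.3% fell). The median change of the 9 genes was 0.57 in BAM only, against 0.30 over all probes. With ASCs it was 0.11, against 0.11 over all probes. This step coincides with the change of scan date, and day and scan date cannot be told apart. Emcn in BAM only went from between -1.75 and -1.11 to between -1.34 and -0.02, a rise of 0.89 ± 0.15 (adjusted p = 1.55e-06), and with ASCs from between -1.60 and -1.27 to between -0.86 and 0.18, a rise of 1.01 ± 0.15 (adjusted p = 3.18e-07). With ASCs every array of 90 days was above every array of 30 days, as for 8.37% of all probes. Nos3 rose by 0.78 ± 0.22 and 0.71 ± 0.22, and Cldn5 by 0.68 ± 0.17 and 0.96 ± 0.17, in BAM only and with ASCs.

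Of the 10 genes 5 matched an entry in the RefSeq promoter table of assembly GRCr8, namely these 3, Tie1 and Egfl7. The promoters of the 3 genes are shown because they were DEGs that rose in both grafts, at a step in which many other probes rose too. Each runs 5′ to 3′ on the strand of the gene, from 250 bases before to 50 bases after the start. Capitals mark a match to one of 5 short motifs, each searched on both strands. The motif of ETS factors was searched as the letters CCGGAA, that of SOX factors as the letters AACAAT, that of FOX factors as the letters TAAACA, that of GATA factors as the letters AGATAA, and the TATA box as the letters TATAAA. The table's coordinates are chr2:228564289-228564588 on the plus strand for Emcn, chr4:11706532-11706831 on the minus strand for Nos3 and chr11:95718549-95718848 on the minus strand for Cldn5.
Emcn: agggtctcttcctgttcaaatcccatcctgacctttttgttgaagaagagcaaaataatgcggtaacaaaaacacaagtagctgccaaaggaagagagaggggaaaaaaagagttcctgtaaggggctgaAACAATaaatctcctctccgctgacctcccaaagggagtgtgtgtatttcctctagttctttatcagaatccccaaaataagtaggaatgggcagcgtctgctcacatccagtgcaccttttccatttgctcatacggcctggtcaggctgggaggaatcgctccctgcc
Nos3: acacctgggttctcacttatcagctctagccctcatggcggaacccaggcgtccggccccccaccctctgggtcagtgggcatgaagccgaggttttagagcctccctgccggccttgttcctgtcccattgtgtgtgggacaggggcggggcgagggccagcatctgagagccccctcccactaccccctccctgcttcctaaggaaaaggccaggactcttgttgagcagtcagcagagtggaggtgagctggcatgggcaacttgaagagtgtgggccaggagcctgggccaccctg
Cldn5: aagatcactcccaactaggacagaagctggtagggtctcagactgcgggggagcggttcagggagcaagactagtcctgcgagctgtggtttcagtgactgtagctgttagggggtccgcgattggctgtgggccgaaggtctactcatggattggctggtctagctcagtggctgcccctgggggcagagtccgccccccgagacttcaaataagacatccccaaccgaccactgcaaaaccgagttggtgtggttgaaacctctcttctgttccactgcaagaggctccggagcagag
In these windows 1 match was found, the SOX letters in Emcn. Among all 27457 genes of that source, 12.6% held these letters in at least 1 of their promoters. For the ETS letters it was 16.5%, for FOX 14.8%, for GATA 12.2% and for TATA 15.3%. A gene with several promoters counted once, so these are shares of genes and not of single windows. A match is a description of the sequence, and the windows without one say nothing about the factors.

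From 90 to 180 days Cldn5 rose again in both grafts, and it was the only gene of the 9 that was a DEG in both in that step. The means of Emcn, Nos3, Sox18 and Tie1 also rose in both grafts, short of the thresholds. In BAM only Cldn5 went from between -1.18 and 0.13 to between 0.16 and 0.83, a rise of 0.95 ± 0.17 (adjusted p = 1.17e-05). With ASCs it went from between -1.12 and 0.41 to between 0.49 and 1.24, a rise of 0.75 ± 0.17 (adjusted p = 0.00100). In both grafts every array of 180 days was above every array of 90 days, as for 1.84% of all probes in BAM only and 2.63% with ASCs. In BAM only 9.36% of all probes changed (5.2% rose and 4.16% fell), and Cdh5 was the DEG that fell, by 1.07 on the log2 scale (SE 0.23, adjusted p = 3.16e-04), to a group in which 6 of 8 arrays were well above background. With ASCs 4.13% changed (3.51% rose and 0.616% fell), and Vwf rose by 0.65 ± 0.17 (adjusted p = 0.00539), from between -0.71 and 0.31 to between -0.01 and 1.12. The second Vwf probe, at 0.83 ± 0.23 and an adjusted p of 0.0110, was not past the threshold.

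The order of the 8 groups differed between genes. BAM only at 7 days had the highest mean for Pecam1, Cdh5, Vwf, Tie1, Esam and Sox18, and BAM seeded with ASCs at 180 days the highest for Emcn, Nos3 and Cldn5. BAM only at 30 days was lowest for Pecam1, Emcn, Esam, Nos3 and Cldn5. Of the 63 steps between neighbours in these orders 3 had an adjusted p below 0.01. For Vwf it was the step from BAM only at 7 days, at 1.36 ± 0.48 (SD, n = 8), to ASCs at 180 days, at 0.49 ± 0.39 (SD, n = 8). For Emcn it was the step from ASCs at 7 days, at -0.71 ± 0.27 (SD, n = 8), to ASCs at 30 days, at -1.41 ± 0.12 (SD, n = 8). The Cldn5 step was that from ASCs to BAM only at 90 days. The other steps did not reach this threshold, which does not show that those neighbours were equal. The first Pecam1 step, 0.39, had a limma adjusted p of 0.0322, and Sox18 steps of 0.42 and 0.61 had 0.0446 and 0.0489.

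Array by array, with the mean of each group removed, the 9 genes varied together to unequal degrees. Over the 64 arrays the Pearson r of the 36 pairs had a median of 0.48, from 0.01 for Cdh5 with Tie1 to 0.71 for Pecam1 with Nos3. Pecam1 followed the mean of the other genes most closely (r = 0.81) and Cdh5 least (r = 0.32). These arrays share their scaling, and the values are descriptions. Among 5227 other genes well above background on all arrays, the 5 with the profile most like the mean of the 9 were Rasip1 (r = 0.90), Ramp2 (r = 0.85), Cdh13 (r = 0.85), Adgrl4 (r = 0.84) and Adgrf5 (r = 0.84), while the median of all was 0.00. The other 26 endothelial genes had a median r of 0.59, mural cell genes 0.45, leukocyte genes 0.19 and urothelial genes -0.40. These lists, unlike the 5227 genes, were not limited to genes well above background on all arrays.

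**Figure D4:**
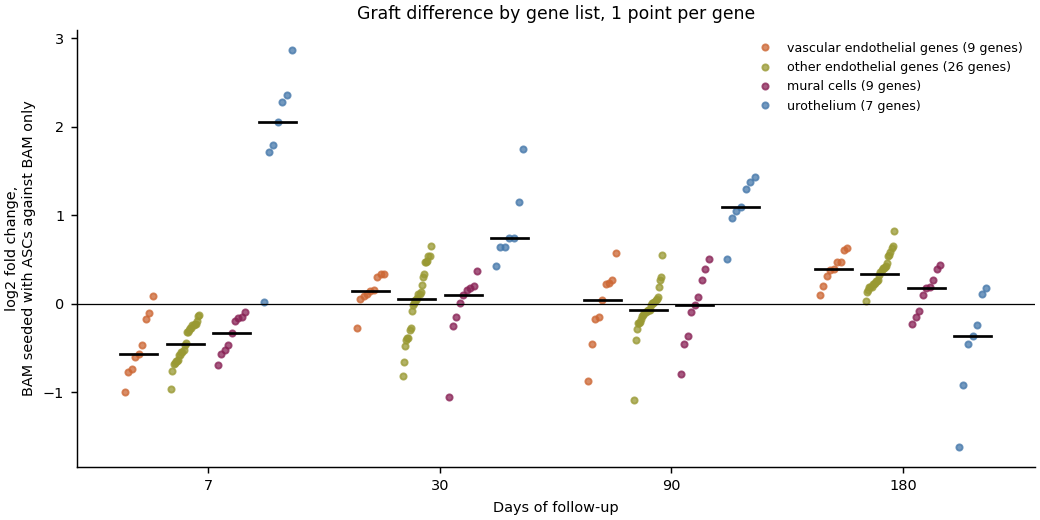
Log2 fold change of BAM seeded with ASCs against BAM only (y axis) at each day of follow-up (x axis), with 1 point per gene and a black line at the median, for the 9 vascular endothelial genes, 26 other endothelial genes, 9 mural cell genes and 7 urothelial genes. Both endothelial lists lie mostly below 0 at 7 days and above 0 at 180 days, and the urothelial genes have a median of 2.06 at 7 days.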

How the data were processed

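Total RNA of reconstructed bladder wall from 64 rats in 8 groups was measured on 1-color arrays. Per the labels, the groups are given by graft and day, and each array is a biological replicate. The authors scanned the arrays and deposited the Agilent Feature Extraction 12.0.1.1 output, whose processed signal is a linear intensity after background correction within the array. They also deposited a series matrix of the same intensity, and in 61 of 64 columns the median difference from the scanner intensity was below 0.01 on the log2 scale. The column of replicate 1 of BAM only at 180 days lacked values for 24873 gene spots. The remaining 3 columns, all of 7-day bladders with ASCs (replicates 2, 3 and 4), had another scale, so the matrix served only as an alternative.

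Here log2 of the processed signal minus each array's 75th percentile over gene spots was computed, leaving out the 4259 control spots and outlier spots, and replicate spots were averaged per probe. Probes were named by RefSeq accession without version in the table of assembly GRCr8 (18758 of 22372 probes with an accession). The brightest probe stood for a gene. A mean per group was modelled for the 64 arrays together (limma version 3.58.1, R version 4.3.3), and p-values were adjusted after Benjamini-Hochberg over 30367 probes. Tables and figures were made in Python 3.11.15 using pandas 2.3.3, numpy 2.4.6 and matplotlib 3.10.9. The study's methods used a 2-way analysis of variance. As an alternative the same comparisons of groups were tested here without moderation, and the joint tests of graft, day and their interaction were not run. Quantile normalization, normexp (offset 50), the percentile over detected probes, the series matrix, a filter on dim probes, outlier spots kept, the mean over the probes of a gene, other thresholds, fits by day, a block for the replicate number and leaving out each array were tried as well. The fit was tested on simulated data.

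The 9 genes, the 14 lists of marker genes and the tests were chosen with earlier results of these data known. From each list at most 6 genes were named, those with the largest differences among the DEGs of a graft comparison, and the 5 genes of like profile were named by their correlation. The number of arrays and their signal over background limit the precision.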

Additional observations from a re-analysis of the deposited data

Results flagged for a closer look

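Of the 72 sets of 8 arrays, 1 for each of 9 genes and 8 groups, 6 held an array whose gap to the nearest other was large against the range of the set. About 5% of such sets are marked in this way by chance. Cdh5 had 1 such array with ASCs at 30 days, replicate 1 at -0.11, and 1 in BAM only at 90 days, replicate 8 at -0.081. Tie1 had replicate 3 with ASCs at 90 days at -3.53 and replicate 5 of BAM only at 180 days at -0.76. Vwf had replicate 7 of BAM only at 30 days at 0.51, and Cldn5 had replicate 3 with ASCs at 90 days at -1.12. Replicate 3 with ASCs at 90 days also had the lowest mean over the 9 genes of its group, -1.42, with -1.94 over the other endothelial genes, -3.08 over leukocyte genes and 5.07 over urothelial genes. Its part in the 90-day values was not tested beyond leaving it out.

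The difference between grafts changed between days, by the test of that change, for Vwf and Cdh5. For Vwf it rose by 1.15 from 7 to 30 days and by 0.92 from 90 to 180 days, in each case past the threshold by 1 of its 2 probes only. For Cdh5 it went by -1.21 from 30 to 90 days and by 1.503 from 90 to 180 days.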

How the results depend on the processing

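The count of the 9 genes that were DEGs changed with several settings. At 7 days it was 1, and 4 with normexp background correction, 3 without dim probes, 3 with each day fitted separately, 4 with an unadjusted p, 5 with an adjusted p below 0.05 and no fold threshold, and 0 with a 2-fold threshold. At 90 days it was 1, and 0 with normexp, with each day fitted separately or with the 2-fold threshold, 2 with quantile normalization or the percentile over detected probes, and 3 with the adjusted p below 0.05. At 180 days it was 0, and 1 with normexp, 2 unadjusted and 1 below 0.05. In BAM only from 7 to 30 days the count was 7, and 5 with the 2-fold threshold (without Pecam1 and Emcn) and 8 (with Tie1) under normexp, the unadjusted p or the adjusted p below 0.05. From 30 to 90 days the adjusted p below 0.05 gave 5 in place of 4. In BAM only the 2-fold threshold left 0 of 4 genes from 30 to 90 days and 1 of 2 from 90 to 180 days. With ASCs it left 1 of 2, 1 of 3 and 0 of 2 in the successive steps. The adjusted p below 0.05 gave 6 from 30 to 90 days with ASCs. From 90 to 180 days with ASCs, the percentile over detected probes gave 1, the unadjusted p 4 and the adjusted p below 0.05 gave 5. For the change of the graft difference from 7 to 30 days, the unadjusted p gave 4 and the adjusted p below 0.05 gave 3. From 30 to 90 days normexp gave 0 and the adjusted p below 0.05 gave 2, and from 90 to 180 days the mean over probes and the 2-fold threshold each gave 1 in place of 2. The causes were not tested.

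The gap between the median of the 9 genes and that of all probes at 90 days was 0.31, and it was -0.071 with normexp and -0.022 without dim probes. At 7 days it stayed between -0.59 and -0.25 and at 180 days between 0.29 and 0.37 across these settings. Normexp moved the median of all probes at 90 days from -0.27 to 0.08.

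With each array left out, the counts ran from 1 to 4 at 7 days, 0 to 0 at 30 days, 0 to 2 at 90 days and 0 to 0 at 180 days. They ran from 3 to 5 (30 to 90 days) in BAM only, from 2 to 3, 2 to 3 and 1 to 4 in the successive steps with ASCs, and from 0 to 1 for the graft difference from 30 to 90 days, while the other counts did not move. At 7 days 4 genes were DEGs without BAM only replicate 4, 3 without replicate 3 with ASCs, and 2 without BAM only replicate 2, 5 or 8 or replicate 2 with ASCs. At 90 days 0 were without BAM only replicate 8 or replicate 6 with ASCs, and 2 without replicate 3 or 8 with ASCs or BAM only replicate 1, 2, 5 or 7. From 90 to 180 days with ASCs, 4 were without replicate 2 of 90 days and 1 without replicate 3, 6 or 8 of 90 days or 2, 6 or 7 of 180 days. From 7 to 30 days with ASCs, 3 were without replicate 5 of 30 days. From 30 to 90 days with ASCs, 2 were without replicate 3, 5 or 6 of 30 days or 1, 2, 4 or 6 of 90 days. The gaps of medians ran from -0.45 to -0.32, -0.03 to 0.12, 0.22 to 0.52 and 0.23 to 0.43 at 7, 30, 90 and 180 days.

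Signs turned only for differences that were not called. With normexp these were Sox18 at 30 days (-0.032), Tie1 with ASCs from 30 to 90 days (0.10) and Emcn for the graft difference from 30 to 90 days (-0.013). With quantile normalization these were Tie1 with ASCs from 30 to 90 days (0.070), Nos3 for the graft difference from 30 to 90 days (0.11) and Tie1 for that from 90 to 180 days (-0.032). With 1 array left out, the graft differences that turned were Cldn5 at 7 days (-0.0044 to 0.18), Tie1 at 90 days (-0.081 to 0.27) and Esam at 90 days (-0.24 to 0.016). In BAM only they were Sox18 from 30 to 90 days (-0.12 to 0.15) and, from 90 to 180 days, Pecam1 (-0.19 to 0.038), Tie1 (-0.12 to 0.17) and Esam (-0.22 to 0.035). With ASCs they were Cdh5 from 7 to 30 days (-0.15 to 0.15), Pecam1 (-0.11 to 0.11), Tie1 (-0.15 to 0.18) and Sox18 (-0.016 to 0.19) from 30 to 90 days, and Tie1 from 90 to 180 days (-0.016 to 0.31). Changes of the graft difference that turned were Nos3 (-0.18 to 0.17) and Sox18 (-0.039 to 0.23) from 30 to 90 days and Tie1 (-0.069 to 0.33) and Nos3 (-0.028 to 0.30) from 90 to 180 days.

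Arrays with the same replicate number were not paired. Of 32 same-numbered pairs 9 had a correlation of their deviations above 0.1, with a median of 0.03, and 8 of 64 arrays correlated best with their own number. With the number as a block the count at 7 days was 2 and that with ASCs from 90 to 180 days was 3, and no other count of DEGs changed. The number of arrays and their signal over background limit what can be seen.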

Other observations

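Of 10 arterial genes Gja4 and Hey1 were lower with ASCs at 7 days, by differences of -0.66 and -0.81. Gja5, a connexin of arterial endothelium, was higher at 30 days (1.16, adjusted p = 0.00245), Sox17 was lower at 90 days (-1.09, adjusted p = 0.00270), and Hey1, a Notch target, was higher at 180 days (0.78, adjusted p = 0.00678). At 7, 30, 90 and 180 days 2, 1, 1 and 1 of the 10 were DEGs, against 7.71%, 1.67%, 12.4% and 2.42% of all probes. The arterial list medians were -0.26, 0.13, -0.05 and 0.23, against -0.16, 0.11, -0.27 and 0.06 over all probes. A higher mean with ASCs was seen in 2, 7, 5 and 9 of the 10. Of 5 lymphatic genes Pdpn was higher at 30 days (0.80) and Flt4 lower at 90 days (-0.67), each the only DEG of the list at that day. Of all probes 1.67% and 12.4% were DEGs at these days. The means of 3 of the 5 genes were higher with ASCs at 30 days and of 2 at 90 days. The lymphatic list medians were 0.004 and -0.29, against 0.11 and -0.27 over all probes. Well above background on all BAM only arrays of 90 days were 3 of the 10 arterial and 3 of the 5 lymphatic genes, against 4 and 3 with ASCs. The part of the local background in the Sox17 and Flt4 differences was not tested. Of 3 venous genes none was a DEG between grafts at any day, with 2 at an unadjusted p below 0.05 at 30 days and 1 at 90 days. At 30 days Nr2f2 was higher with ASCs by 0.51 (adjusted p = 0.00213), and its fold change of 1.43 was under the threshold.

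Of 10 genes of activated endothelium and tip cells, Apln was lower with ASCs at 7 days (-1.27, adjusted p = 0.00809), Icam1, which binds leukocytes, was lower at 30 days (-0.85, adjusted p = 0.00444), and Dll4, a Notch ligand of tip cells, was lower at 90 days (-0.93, adjusted p = 2.87e-04). Each was the only DEG of its day among the 10, against 7.71%, 1.67% and 12.4% of all probes. A higher mean with ASCs was seen in 0 of the 10 at 7 days, 7 at 30 days and 2 at 90 days. The list medians were -0.60, 0.15 and -0.30, against -0.16, 0.11 and -0.27 over all probes. Of 7 leukocyte genes none was a DEG at 30 days, with 5 at an unadjusted p below 0.05 and a median of -0.94. Their part in the Icam1 difference was not tested. Only 2 of the 10 endothelial genes were well above background on all BAM only arrays of 90 days, against 4 with ASCs. The part of the local background in the Dll4 difference was not tested. Of 4 red cell genes 2 passed the test at 90 days, but their probes were saturated on most arrays of both grafts, so no difference is given. Of 4 platelet genes 1 was a DEG at 30 days, Ppbp, higher with ASCs by 1.48 (adjusted p = 0.00169). Of all probes 1.67% were DEGs at that day. The means of 2 of the 4 genes were higher with ASCs, with a median of 0.12 against 0.11 over all probes. The mean level of the 4 genes ran from -3.83 to -1.67 with a median of -3.33 with ASCs. In BAM only it ran from -3.61 to -3.28. In each graft 2 of the 4 genes were well above background on all arrays of that day. Of 3 adipocyte genes none was a DEG between grafts at any day, with 1 at an unadjusted p below 0.05 at 90 days and 1, Adipoq, at 180 days. From 90 to 180 days the graft difference of Adipoq rose by 5.11 ± 1.45 (adjusted p = 0.00798), a call by the test of that change.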
